A study of Canis lupus familiaris with 10 samples.

Results

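Genes for nuclear-encoded subunits of the oxidative phosphorylation complexes were followed through a calcium switch in MDCK cells, which derive from dog kidney epithelium. They were chosen by symbol, from probe sets with a single symbol that starts with NDUFA, NDUFB, NDUFC, NDUFS or NDUFV and a digit, SDHA to SDHD, UQCR, COX4 to COX8, or ATP5. The rule found 57 of 15947 annotated genes, of which 30 belong to complex I, 3 to complex II, 7 to complex III, 9 to complex IV and 7 to complex V, with NDUFA4L2 kept apart. The study set a Mock line against a line that overexpresses human BLT2, a receptor that binds 12-hydroxyheptadecatrienoic acid, a lipid known as 12-HHT, and its title names the effect of 12-HHT and BLT2 on expression after the switch as its question. Confluent cells of each line were sampled in DMEM with 10% FCS (0 h), after 2 h and after 18 h in calcium-free SMEM, and 2 h after a change back from 18 h in SMEM to high-calcium DMEM, without or with 200 nM 12-HHT. Medium, calcium and time in culture changed together, with no array kept in the 0 h medium until the later steps. Their effects cannot be told apart. The labels give 1 Mock and 1 BLT2 line without saying whether either is a clone. Each of the 10 combinations of line and step was measured on 1 GeneChip Canine Gene 1.0 ST array with RNA mixed from 3 preparations, so no replicate arrays exist.

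These complexes sit in the inner mitochondrial membrane. Complexes I and II take electrons from NADH and succinate, complex III passes them to cytochrome c, complex IV hands them to oxygen, and complexes I, III and IV pump protons that drive ATP synthesis by complex V. A few subunits of complexes I, III, IV and V are encoded by mitochondrial DNA, and the others, with all of complex II, are made from nuclear genes and imported. Kidney tubule cells depend on this pathway to power ion transport, while cultured lines also make ATP by glycolysis. Changes are differences of log2 signal, given ± standard error. A gene is said to be called, or to rise or fall, when its limma adjusted p over 10498 genes was below 0.05 in a model with additive terms for line and step, fitted to the 10 arrays. The error in that model is the part of the signals that line and step do not explain, so it holds array noise together with true differences in response between the lines. Arrays are bulk samples, so fewer cells and less RNA per cell cannot be told apart.

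Array medians lay between 7.16 and 7.27, and each array's correlation with the others, averaged, was lowest for the BLT2 2 h array, at 0.9453 against 0.9473 to 0.9604 for the rest. Of the 8 kidney epithelial markers, 7 passed the signal filter of 7.21 on at least 2 arrays, and CDH16 did not. The mean of this list ran from 10.2 to 10.8 over arrays, against 6.30 to 6.66 for 7 fibroblast markers, 6.09 to 6.43 for 6 endothelial and 5.87 to 6.17 for 6 leukocyte markers, of which 1, 1 and 2 passed. At 18 h the epithelial markers CDH1 and CLDN4 were higher by 0.53 and 1.00 and PAX8 was lower at -0.57 (limma adjusted p = 0.008, 0.0184 and 0.0144), and their part in the results below was not tested.

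Of the 57 subunit genes, 53 passed the signal filter. The 4 that did not were COX4I2, a lung and hypoxia isoform, COX7B2, a testis isoform, NDUFA4L2, a hypoxia-induced paralogue of NDUFA4, and ATP5ME, the e subunit of the ATP synthase membrane part. COX4I2 signals ran from 6.52 to 7.23 over the 10 arrays, COX7B2 from 6.37 to 6.78, NDUFA4L2 from 6.09 to 6.57, and ATP5ME from 5.35 to 6.17. Except for the highest COX4I2 signal, these lay below the filter level, which is the median of all deposited values. Signals there were taken to carry little information on change, and signals of different probe sets are not compared as levels. The partner isoform COX4I1, the widely expressed form, passed, with signals from 10.41 to 10.72. The heart and muscle isoforms COX7A1 (7.54 to 8.67) and COX6A2 (7.74 to 8.23) also passed. Subunits that no single-symbol probe set named, such as NDUFA1, SDHD, COX6A1, COX7A2 and NDUFA4, were not analysed here.

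The subunit genes varied little over the experiment. Their range over the 10 arrays had a median of 0.45 on the log2 scale, against 0.67 over all 10498 genes. The range stayed under 0.5 for 33 of 53 subunits (62.3%) and for 26.4% of all genes, and reached 1 for 3 subunits (5.66%) and for 22.5% of all genes. Those 3 were ATP5F1D (1.42), COX7A1 (1.13) and NDUFB3 (1.13). With a filter at the 75th percentile, which left 48 subunits and 6362 genes, the median ranges were 0.43 and 0.70, so the contrast did not narrow among brighter probe sets. The narrowest ranges belonged to COX5B, a nuclear-encoded subunit on the matrix side of complex IV (11.73 to 11.87), and ATP5F1B, the catalytic beta subunit of ATP synthase (12.80 to 12.94). ATP5F1B was also the member of complex V with the highest mean signal. In the other complexes these were NDUFA2 (complex I, 11.92 to 12.37), SDHC (complex II, 11.19 to 11.65), UQCRQ (complex III, 11.04 to 11.47) and COX5A (complex IV, 12.16 to 12.40).

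**Figure D1:**
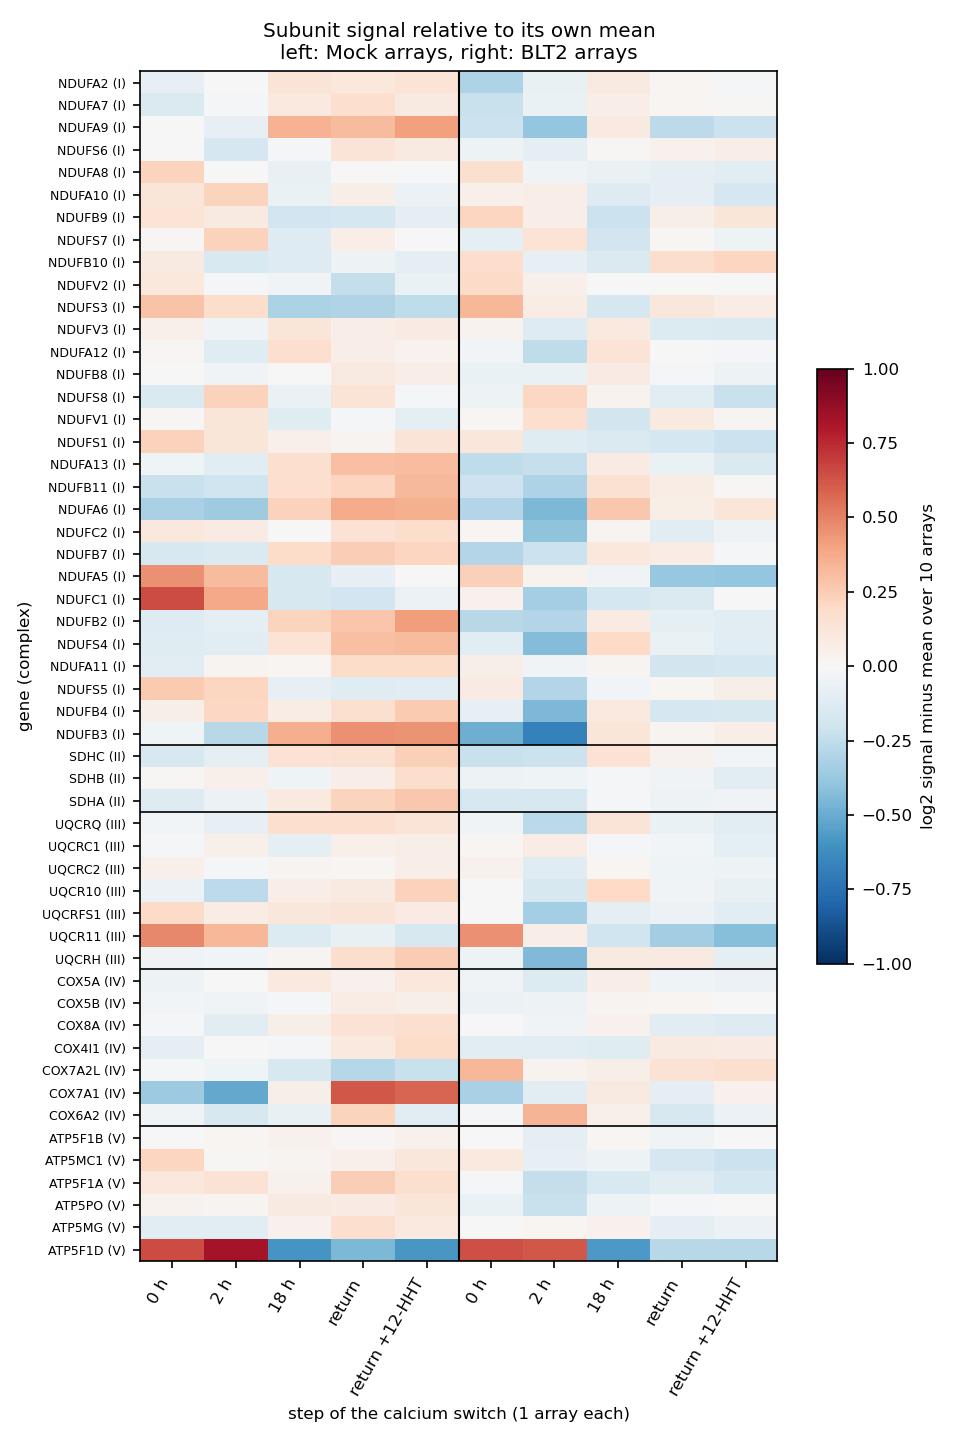
Log2 signal of each of the 53 subunit genes minus its own mean over the 10 arrays, by complex (rows) and by array (columns, 5 Mock and 5 BLT2 arrays in step order). Most rows stay pale, and ATP5F1D turns from high to low at 18 h in both lines.

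After 2 h in calcium-free medium no subunit was called, against 4.62% of all genes (2.64% higher and 1.98% lower), and 4 of 53 had an unadjusted limma p below 0.05, against 2470 of 10498 genes. The median change was -0.09 over the subunits and -0.02 over all genes. The fitted changes ran from -0.33 ± 0.21 for NDUFC1, an accessory subunit of the complex I membrane arm (limma adjusted p = 0.4), to 0.32 ± 0.12 for NDUFS8, which binds iron-sulfur clusters on the electron path of complex I (adjusted p = 0.166). NDUFS8 signals were 10.15 at 0 h and 10.53 at 2 h in Mock, and 10.24 and 10.51 in BLT2, so both lines were higher at 2 h. In Mock alone the median change was -0.03, with 30 of 53 subunits below 0, and in BLT2 alone it was -0.14, with 36 below 0. No subunit reached 1.5-fold in either line, while 4.52% of all genes did in Mock and 11.9% in BLT2. The BLT2 2 h array had the lowest mean correlation with the others, by a small margin, and its part in this share was not tested. Across the subunits, the half-width of the 95% interval of a change between steps had a median of 0.24, so shifts smaller than this could mostly not be resolved for a single gene.

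After 18 h without calcium, 6 subunits rose and 5 fell of 53 (20.8%), against 27.2% of all genes called, 15.0% higher and 12.2% lower. The median change was 0.03 over the subunits and 0.02 over all genes, with calls in both directions. Complex I held 5 of the rises (NDUFA6, NDUFB3, NDUFB11, NDUFB7 and NDUFA2) and 3 of the falls (NDUFS3, NDUFA5 and NDUFB9). SDHC of complex II rose, UQCR11 of complex III and ATP5F1D of complex V fell, and none of the 7 tested complex IV subunits was called. Of these 7, 0 also had an unadjusted limma p below 0.05, against 4214 of 10498 genes. With 1 array left out, 0 to 6 subunits were called higher and 1 to 4 lower, with 0 higher without either 0 h array or the BLT2 18 h array, and 1 lower when the Mock 18 h array or the BLT2 0 h array was dropped.

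**Figure D2:**
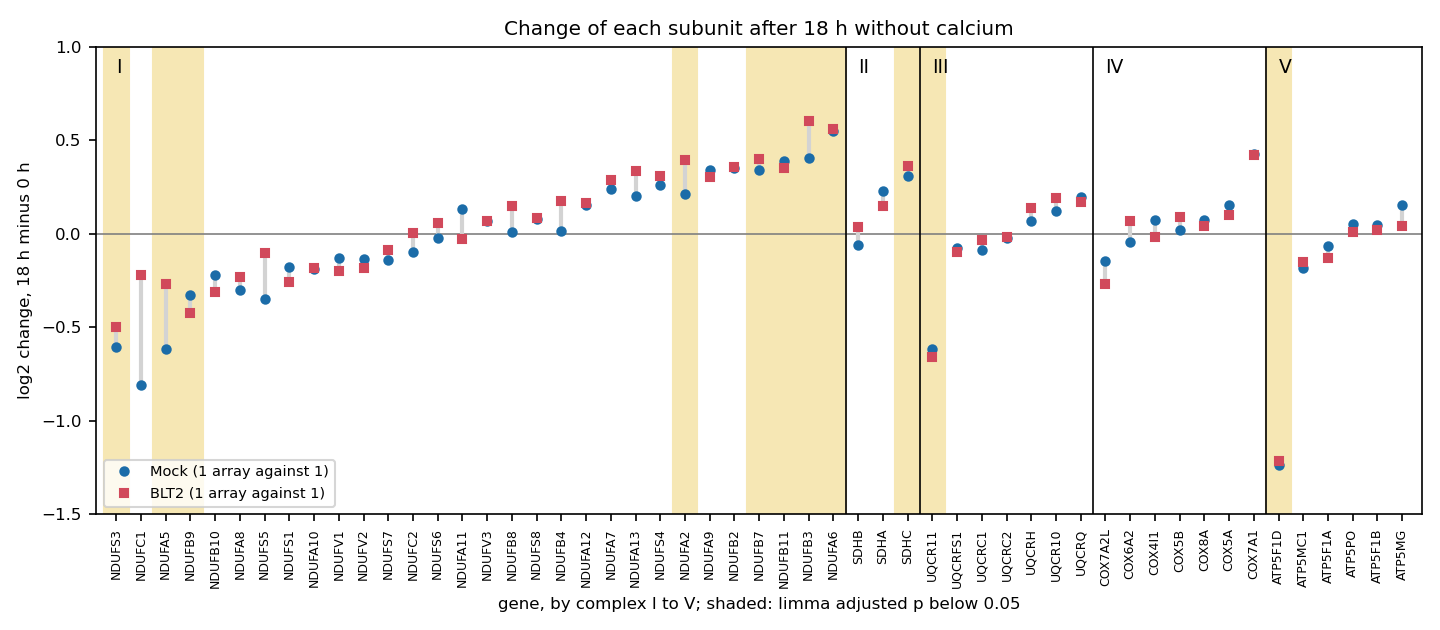
Log2 signal at 18 h minus 0 h for each of the 53 subunits, by complex, with 1 point for Mock and 1 for BLT2 (1 array against 1), where shading marks limma adjusted p below 0.05. ATP5F1D lies at -1.24 in Mock and -1.22 in BLT2, and UQCR11, the next lowest in the fit, at -0.62 and -0.66.

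ATP5F1D, the delta subunit in the central stalk of the ATP synthase F1 part, fell most. The ATP5F1D log2 signal on the Mock arrays was 11.28 at 0 h, 11.47 at 2 h, 10.05 at 18 h, 10.18 on return and 10.05 on return with 12-HHT. On the BLT2 arrays it was 11.28, 11.25, 10.06, 10.35 and 10.36 in the same order. All 6 arrays from 18 h on lay below all 4 earlier ones. The change at 18 h was -1.23 ± 0.13, which left 0.428 of the 0 h level (limma adjusted p = 0.00216, n = 2 arrays per step), and -1.24 in Mock against -1.22 in BLT2. The call held in each of the 10 fits that left out 1 array, with adjusted p up to 0.0291. The other 5 complex V subunits tested were not called and changed by -0.17 to 0.10, from ATP5MC1 of the membrane c ring to ATP5MG. ATP5F1A and ATP5F1B, the alpha and beta subunits of the same F1 part, changed by -0.10 ± 0.10 and 0.03 ± 0.09 (limma adjusted p = 0.538 and 0.837).

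UQCR11, a small subunit of complex III, was the other large fall outside complex I. In step order, the UQCR11 log2 signals were 10.16, 10.02, 9.54, 9.61 and 9.52 in Mock and 10.14, 9.75, 9.48, 9.33 and 9.26 in BLT2. Signals fell between 2 h and 18 h in both lines and the late arrays stayed below the early ones. In BLT2 the wider drop came earlier, between 0 h and 2 h. The change was -0.64 ± 0.11 (limma adjusted p = 0.00649). UQCR11 was no longer called once the BLT2 0 h or the Mock 18 h array was dropped (limma adjusted p = 0.0597 and 0.0558). The other 6 complex III subunits were not called, from -0.09 ± 0.10 for UQCRFS1, the Rieske iron-sulfur protein, to 0.18 ± 0.10 for UQCRQ (limma adjusted p = 0.581 and 0.236). The core proteins UQCRC1 and UQCRC2 changed by -0.06 and -0.02.

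Among the complex I genes that fell, NDUFS3 and NDUFA5 belong to the part of the peripheral arm that reduces ubiquinone, and NDUFB9 is a membrane arm subunit of the LYR-motif family. The Mock arrays gave NDUFS3 log2 signals of 11.06, 10.95, 10.46, 10.48 and 10.53 from 0 h to return with 12-HHT. The BLT2 arrays gave 11.11, 10.86, 10.61, 10.89 and 10.85. On return the Mock line stayed near its 18 h level, while the BLT2 line was near its 2 h level. NDUFS3 changed by -0.55 ± 0.14 at 18 h (limma adjusted p = 0.0248). For NDUFS3, limma adjusted p rose to 0.166, 0.0814, 0.107 and 0.147 on dropping either 0 h or either 18 h array. NDUFA5 had log2 signals of 9.71, 9.58, 9.10, 9.18 and 9.25 over the 5 Mock arrays and 9.49, 9.29, 9.23, 8.88 and 8.87 over the 5 BLT2 arrays. Its late arrays all lay below its early ones. The change was -0.44 ± 0.13 (limma adjusted p = 0.0462), with -0.62 in Mock and -0.27 in BLT2. With 1 array dropped, 1 of 10 fits still called NDUFA5, that without the BLT2 18 h array, and limma adjusted p reached 0.294 in the others. In step order, the NDUFB9 log2 signals were 11.10, 11.06, 10.78, 10.80 and 10.87 in Mock and 11.18, 11.04, 10.76, 11.03 and 11.09 in BLT2. The BLT2 return array, at 11.03, was just below the lowest early array, at 11.04, and the BLT2 return array with 12-HHT lay among the early ones. NDUFB9 changed by -0.38 ± 0.11 (limma adjusted p = 0.0372). Dropping 1 array left NDUFB9 called only where it was either 2 h or either return array, and limma adjusted p otherwise reached 0.248.

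Among the complex I genes that rose, NDUFA6 is a LYR-motif subunit, and NDUFB3, NDUFB7 and NDUFB11 are accessory subunits of the membrane arm. The NDUFA6 log2 signal on the Mock arrays was 9.41 at 0 h, 9.38 at 2 h, 9.97 at 18 h, 10.11 on return and 10.09 on return with 12-HHT. On the BLT2 arrays it was 9.44, 9.28, 10.00, 9.80 and 9.86 in the same order. Late and early arrays did not overlap. The change was 0.56 ± 0.12 (limma adjusted p = 0.0134). For NDUFA6, limma adjusted p rose to 0.114, 0.0513 and 0.127 on dropping either 0 h or the BLT2 18 h array. The Mock arrays gave NDUFB3 log2 signals of 7.62, 7.38, 8.03, 8.11 and 8.11 from 0 h to return with 12-HHT. The BLT2 arrays gave 7.17, 6.98, 7.78, 7.69 and 7.73. BLT2 lay below Mock at each step and both lines rose at 18 h. The change was 0.51 ± 0.09 (limma adjusted p = 0.00909), although the signal lay below the filter level of 7.21 on both early BLT2 arrays. Removing either 0 h or the BLT2 18 h array ended the NDUFB3 call (limma adjusted p = 0.0559, 0.0762 and 0.0985).

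NDUFB11 had log2 signals of 9.61, 9.64, 10.01, 10.05 and 10.16 over the 5 Mock arrays and 9.63, 9.53, 9.99, 9.91 and 9.85 over the 5 BLT2 arrays. The lines ran close together until 18 h. This subunit changed by 0.37 ± 0.11 (limma adjusted p = 0.0399). With 1 array dropped, 4 of 10 fits still called NDUFB11, those without either 2 h or either return with 12-HHT array, and limma adjusted p reached 0.254 in the others. In step order, the NDUFB7 log2 signals were 9.11, 9.13, 9.45, 9.51 and 9.49 in Mock and 8.97, 9.05, 9.37, 9.34 and 9.25 in BLT2. Here too the late arrays all lay above the early ones. NDUFB7 changed by 0.37 ± 0.09 (limma adjusted p = 0.0244). For NDUFB7, limma adjusted p rose to 0.137, 0.123, 0.091 and 0.174 on dropping either 0 h or either 18 h array. NDUFA2, an accessory subunit of the NADH-oxidising module, changed least of the complex I calls. The Mock arrays gave NDUFA2 log2 signals of 12.15, 12.24, 12.36, 12.34 and 12.37 from 0 h to return with 12-HHT. The BLT2 arrays gave 11.92, 12.16, 12.32, 12.25 and 12.21. The BLT2 0 h array was the lowest of the 10. The change was 0.31 ± 0.09 (limma adjusted p = 0.0472). With 1 array dropped, 2 of 10 fits still called NDUFA2, those without either 2 h array, and limma adjusted p reached 0.275 in the others. The 22 complex I subunits that were not called ran from -0.52 ± 0.21 for NDUFC1 to 0.36 ± 0.12 for NDUFB2, a membrane arm subunit (limma adjusted p = 0.115 and 0.065). NDUFC1 was the member with the widest gap between lines in this comparison, at -0.81 in Mock and -0.22 in BLT2, where its 0 h signals were 9.86 and 9.26.

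Of complex II, succinate dehydrogenase, the flavoprotein SDHA, the iron-sulfur protein SDHB and the membrane anchor SDHC were measured. The SDHC log2 signal on the Mock arrays was 11.25 at 0 h, 11.32 at 2 h, 11.56 at 18 h, 11.57 on return and 11.65 on return with 12-HHT. On the BLT2 arrays it was 11.19, 11.20, 11.55, 11.45 and 11.38 in the same order. SDHC rose by 0.33 ± 0.10 at 18 h (limma adjusted p = 0.0432), and its late arrays lay above its early ones in both lines. Dropping 1 array left SDHC called only where it was either 2 h array, and limma adjusted p otherwise reached 0.276. In step order, the SDHA log2 signals were 10.78, 10.85, 11.01, 11.13 and 11.18 in Mock and 10.75, 10.75, 10.90, 10.86 and 10.88 in BLT2. SDHA late arrays also lay above the early ones, with a change of 0.19 ± 0.10 that was not called (limma adjusted p = 0.225). SDHB signals stayed between 11.08 and 11.37, with a change of -0.01 ± 0.10 (limma adjusted p = 0.959). In complex IV the 7 changes at 18 h ran from -0.21 ± 0.11 for COX7A2L, a factor that links complexes III and IV into supercomplexes, to 0.42 ± 0.25 for COX7A1 (limma adjusted p = 0.219 and 0.263). COX5A, COX8A and COX4I1 changed by 0.12, 0.06 and 0.03.

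Taken by line, with no test, 5 subunits differed at least 1.5-fold between 18 h and 0 h in Mock (ATP5F1D, NDUFA5, NDUFC1, NDUFS3 and UQCR11), against 16.3% of all genes, and 3 did in BLT2 (ATP5F1D, NDUFB3 and UQCR11), against 17.8%. When both lines were pooled, 10 of 53 subunits had all 6 arrays from 18 h on above all 4 earlier arrays, against 10.3% of all genes. These were NDUFA6, NDUFA7, NDUFB3, NDUFB7, NDUFB11 and NDUFS4 of complex I, SDHA and SDHC of complex II, and COX5B and COX7A1 of complex IV. ATP5F1D, NDUFA5 and UQCR11 had all late arrays below the early ones, against 5.94% of all genes.

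Set against 2 h, 18 h gave 6 rises and 3 falls of 53, against 22.7% of all genes (14.3% higher and 8.33% lower). After quantile normalization the balance turned to 3 rises and 6 falls, with 1359 of 10450 genes higher and 1027 lower. These calls share the 18 h arrays with the comparison above, so they are not separate evidence. NDUFB3, NDUFA6, NDUFB11 and NDUFB7 rose by 0.72 ± 0.09, 0.65 ± 0.12, 0.41 ± 0.11 and 0.32 ± 0.09, and ATP5F1D and UQCR11 changed by -1.31 ± 0.13 and -0.37 ± 0.11 (limma adjusted p = 0.00564, 0.0113, 0.0333, 0.0439, 0.00423 and 0.0452). NDUFA9, which sits where the peripheral arm meets the membrane arm, and NDUFA12, an accessory subunit of the peripheral arm, rose by 0.45 ± 0.13 and 0.34 ± 0.09 (limma adjusted p = 0.0438 and 0.0337). NDUFS7, which carries the last iron-sulfur cluster before ubiquinone, changed by -0.34 ± 0.09 (adjusted p = 0.0303). NDUFS7 had log2 signals of 10.94, 11.16, 10.80, 10.99 and 10.93 over the 5 Mock arrays and 10.83, 11.07, 10.74, 10.94 and 10.88 over the 5 BLT2 arrays. In both lines the 2 h array was the highest and the 18 h array the lowest. By line, with no test, ATP5F1D and NDUFB3 differed at least 1.5-fold in Mock, against 12.4% of all genes, and ATP5F1D, NDUFA6, NDUFB3 and NDUFS4, an accessory subunit of the NADH-oxidising module, in BLT2, against 19.1%. Leaving out 1 array left 0 to 4 rises and 0 to 2 falls, with 0 of each without the BLT2 18 h array, where limma adjusted p was 0.0596 for ATP5F1D, 0.0767 for NDUFB3 and 0.124 for NDUFA6. The calls of ATP5F1D, NDUFB3 and NDUFA6 held without each of the other 9 arrays. NDUFA12, NDUFB7 and UQCR11 lost their calls without any 1 array, with limma adjusted p up to 0.228, 0.275 and 0.227. With 1 array dropped, 4 of 10 fits still called NDUFA9, those without either return or either return with 12-HHT array, and limma adjusted p reached 0.289 in the others. Dropping 1 array left NDUFB11 called only where it was either return or either return with 12-HHT array, and limma adjusted p otherwise reached 0.241. With 1 array dropped, 2 of 10 fits still called NDUFS7, those without either return array, and limma adjusted p reached 0.191 in the others.

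On return of calcium no subunit was called against 18 h, where 3.34% of all genes were (0.772% higher and 2.57% lower), and 0 of 53 had an unadjusted limma p below 0.05, against 2009 of 10498 genes. Fitted changes ran from -0.19 to 0.21, with 95% intervals reaching -0.50 and 0.78. In Mock alone the median change was 0.08, with 13 of 53 below 0, and in BLT2 alone it was -0.06, with 38 below 0, while the median of all genes was -0.0023 in Mock and 0.00087 in BLT2. No subunit reached 1.5-fold in either line, against 5.08% of all genes in Mock and 12.5% in BLT2. The return arrays with 12-HHT, set against 18 h, also gave no call, against 2.68% of all genes (0.638% higher and 2.04% lower), with 0 at an unadjusted p below 0.05, against 1811 of 10498 genes, and medians of 0.08 in Mock and -0.08 in BLT2. Here too none reached 1.5-fold, against 3.19% of all genes in Mock and 13.1% in BLT2.

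Against 0 h, the return arrays gave 3 rises and 3 falls of 53, against 15.0% of all genes (7.75% higher and 7.29% lower), and the calls again rest on the 0 h arrays used above. NDUFA6, NDUFB3 and NDUFB7 rose by 0.53 ± 0.12, 0.51 ± 0.09 and 0.39 ± 0.09 (limma adjusted p = 0.0251, 0.0154 and 0.0322). ATP5F1D, UQCR11 and NDUFA5 changed by -1.01 ± 0.13, -0.68 ± 0.11 and -0.57 ± 0.13 (adjusted p = 0.00634, 0.00986 and 0.03). All 6 had been called in the same direction at 18 h against 0 h. By line, with no test, 5 subunits differed at least 1.5-fold in Mock (ATP5F1D, COX7A1, NDUFA6, NDUFC1 and NDUFS3), against 14.4% of all genes, and 3 did in BLT2 (ATP5F1D, NDUFA5 and UQCR11), against 13.6%. Without the BLT2 0 h array all 6 calls were lost, with limma adjusted p = 0.0666 for ATP5F1D. For UQCR11, limma adjusted p rose to 0.101 and 0.0534 on dropping the BLT2 0 h or the BLT2 return array. Removing either 0 h or the Mock return array ended the NDUFA6 call (limma adjusted p = 0.164, 0.11 and 0.151). NDUFA5 was no longer called once either 0 h or either return array was dropped (limma adjusted p = 0.143, 0.17, 0.0964 and 0.121). For NDUFB3, limma adjusted p rose to 0.0739, 0.14, 0.0912 and 0.0607 on dropping either 0 h or either return array. Dropping 1 array left NDUFB7 called only where it was either 2 h array, and limma adjusted p otherwise reached 0.19.

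**Figure D3:**
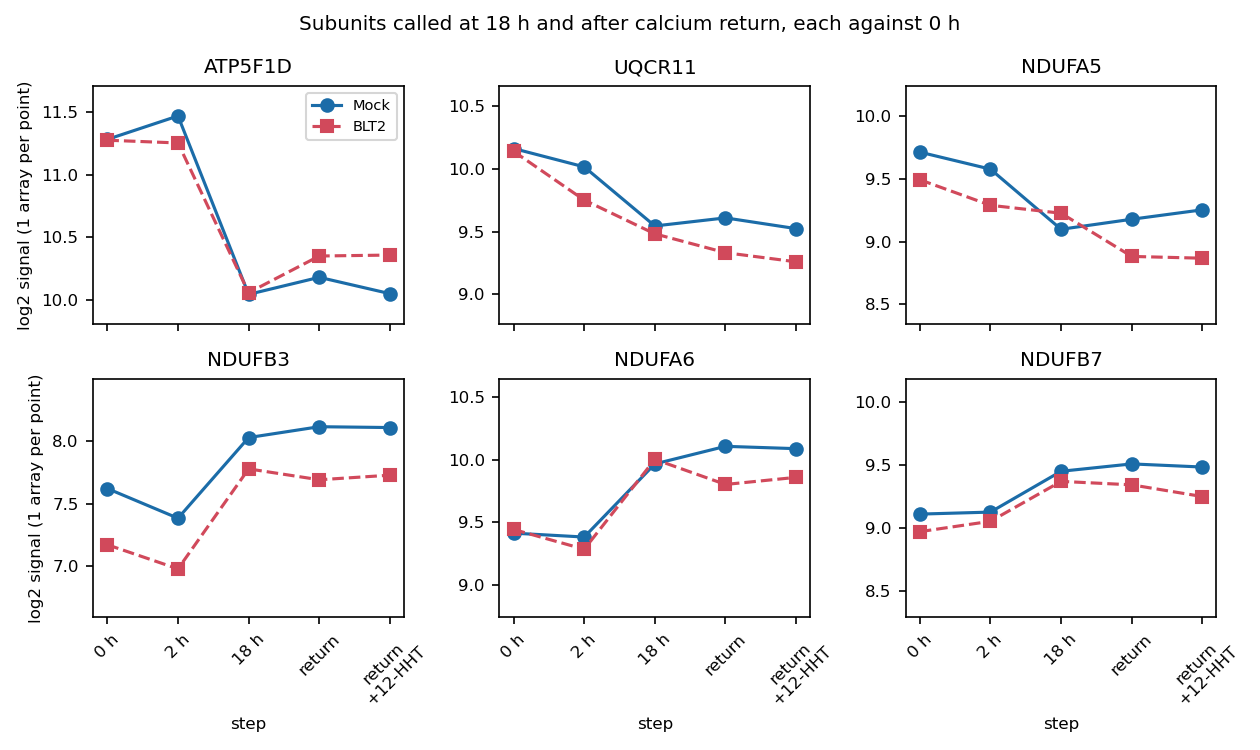
Log2 signal of the 6 subunits called both at 18 h and after calcium return, each against 0 h, by step and line (1 array per point, each panel spanning the same width of log2 signal). ATP5F1D steps down, and NDUFA6, NDUFB3 and NDUFB7 step up, between 2 h and 18 h in both lines. UQCR11 and NDUFA5 step down there in Mock. In BLT2, UQCR11 moves from 10.14 at 0 h to 9.75 at 2 h and 9.48 at 18 h. NDUFA5 in BLT2 moves from 9.29 at 2 h to 9.23 at 18 h and lies at 8.88 on return.

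12-HHT during calcium return gave no call among the subunits, with 0 of 53 at an unadjusted limma p below 0.05. The background was 0.00% of all genes, where 29 of 10498 had an unadjusted p below 0.05. That is far less than the share of 0.05 expected with no change at all. The error of the fit was thus wide for this comparison, and the lack of calls says little about the subunits. Fitted changes over both lines ran from -0.13 to 0.13, and the 95% intervals reached -0.55 and 0.64. This fit averages the lines, so a response in BLT2 alone would be diluted and partly counted as error. Neither the 12-HHT response within BLT2 nor its difference between the lines was tested. In the BLT2 line, which carries the receptor, changes ran from -0.18 for UQCRH, the hinge protein of complex III, to 0.14 for NDUFC1, and in Mock from -0.34 for COX6A2 to 0.18 for NDUFV2, a core subunit of complex I. COX6A2 in Mock was 8.12 on return and 7.78 with 12-HHT. No subunit reached 1.5-fold, against 0.105% of all genes in Mock and 0.438% in BLT2.

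**Figure D4:**
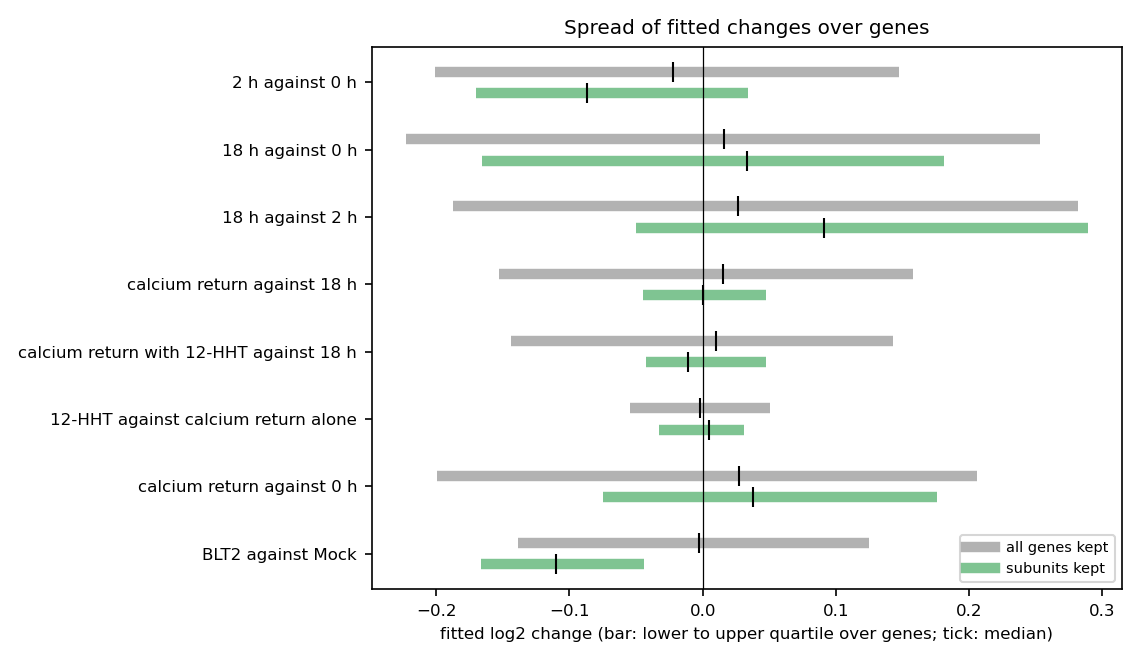
Lower quartile, median and upper quartile of the fitted log2 changes in each comparison, for the 53 subunits and for all 10498 genes. The subunit bars are narrower, and for BLT2 against Mock their median is -0.11.

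Over all steps, 1 subunit was higher and 6 were lower in BLT2 than in Mock, 7 of 53 (13.2%), against 15.9% of all genes, 7.82% higher and 8.13% lower. The fitted difference was below 0 for 45 of 53 subunits, with a median of -0.11, and for 5316 of 10498 genes, with a median of -0.0029. BLT2 was below Mock at all 5 steps for 22 subunits (12 of complex I, 2 of complex II, 4 of complex III, 1 of complex IV and 3 of complex V), against 18.0% of all genes, and above it at all 5 for COX7A2L and NDUFV2, against 15.0%. By step, the median difference was -0.03 at 0 h, -0.10 at 2 h, -0.01 at 18 h, -0.14 on return and -0.20 on return with 12-HHT, while over all genes it was -0.07 at 2 h and between -0.012 and 0.011 at the other 4 steps. Between the same lines, 2 of 7 kidney epithelial markers were higher in BLT2, with a list median of 0.21. KRT18 differed by 0.50 ± 0.09 and CLDN4 by 0.65 ± 0.15 (limma adjusted p = 0.0147 and 0.0265). The 1 tested endothelial marker, VWF, was lower at -0.56 ± 0.09 (limma adjusted p = 0.0101). VWF signals ran from 6.66 to 7.45, and their mean of 7.01 lay below the level of the signal filter. Signals this low carry little information on change, so no difference in cell type is read from VWF. The 1 fibroblast and 2 leukocyte markers tested were not called, and the part of these markers in the result was not tested. Without both 12-HHT arrays the median over the subunits was -0.07, with 1 subunit lower and 0 higher. With 1 array left out, 0 or 1 subunit was higher and 1 to 3 lower, fewest without a return array of either line. For this comparison, dropping the Mock or the BLT2 array of a step gave the same result. The 10 fits thus amount to leaving out each of the 5 steps.

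**Figure D5:**
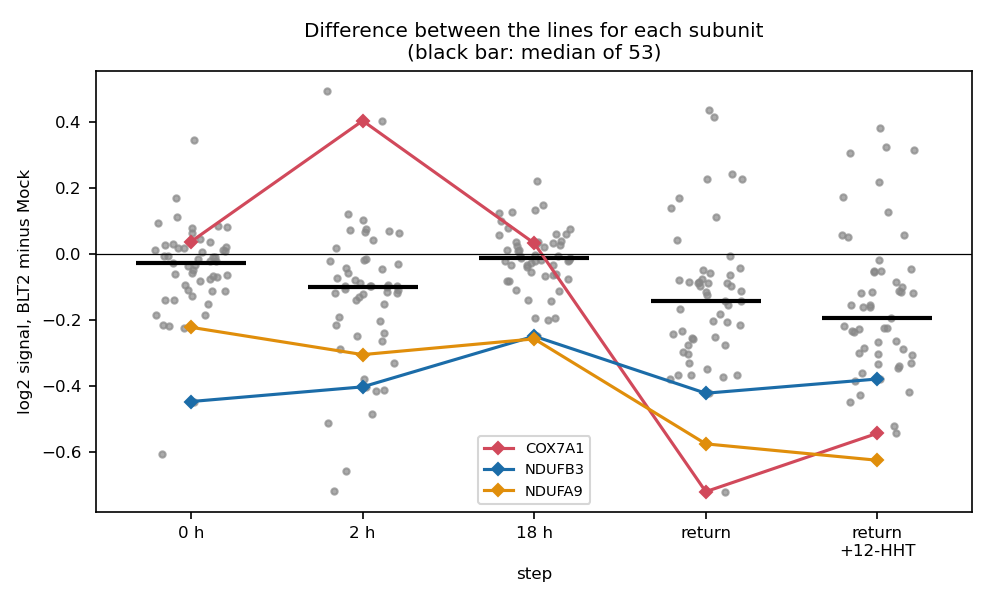
Difference of log2 signal, BLT2 minus Mock, at each step for each of the 53 subunits, with a black bar at their median and COX7A1, NDUFB3 and NDUFA9 drawn as lines. The medians are -0.03, -0.10, -0.01, -0.14 and -0.20 from 0 h to return with 12-HHT.

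For NDUFB3, BLT2 minus Mock was -0.38 ± 0.06 (limma adjusted p = 0.00865), and its signals given above lay lower in BLT2 at each step. The BLT2 signals at 0 h and 2 h, 7.17 and 6.98, lay below the signal filter level of 7.21. The Mock signals and the later BLT2 signals lay above it. Signals below that level carry little information on change, so the size of the NDUFB3 difference at 0 h and 2 h is uncertain. The call held in each of the 10 fits that left out 1 array, in effect 5 fits without 1 step, with adjusted p up to 0.0394. NDUFA9 showed the widest fitted difference. In step order, the NDUFA9 log2 signals were 11.42, 11.33, 11.76, 11.73 and 11.83 in Mock and 11.20, 11.03, 11.50, 11.15 and 11.20 in BLT2. The gap was wider on return than before it. NDUFA9 differed by -0.40 ± 0.08 (limma adjusted p = 0.0206). NDUFA9 was no longer called once either return or either return with 12-HHT array was dropped (limma adjusted p = 0.0593, 0.0593, 0.0764 and 0.0764). The Mock arrays gave ATP5F1A log2 signals of 11.34, 11.38, 11.27, 11.48 and 11.39 from 0 h to return with 12-HHT. The BLT2 arrays gave 11.21, 11.00, 11.08, 11.13 and 11.06. ATP5F1A, part of the F1 hexamer, differed by -0.28 ± 0.06 (limma adjusted p = 0.0303), and BLT2 was lower at every step. Dropping 1 array left ATP5F1A called only where it was either 0 h array, and limma adjusted p otherwise reached 0.114.

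COX7A2L was the single subunit called higher in BLT2. COX7A2L had log2 signals of 9.71, 9.69, 9.57, 9.44 and 9.50 over the 5 Mock arrays and 10.06, 9.76, 9.79, 9.88 and 9.89 over the 5 BLT2 arrays. No BLT2 array lay below any Mock array. The difference was 0.29 ± 0.07 (limma adjusted p = 0.035). With 1 array dropped, 2 of 10 fits still called COX7A2L, those without either 2 h array, and limma adjusted p reached 0.127 in the others. The remaining lower calls were NDUFB2 at -0.28 ± 0.08, UQCRFS1 at -0.24 ± 0.06 and NDUFS1, the largest core subunit of the NADH-oxidising module, at -0.22 ± 0.06 (limma adjusted p = 0.0474, 0.0449 and 0.0481). UQCRFS1 signals were 10.52, 10.41, 10.44, 10.45 and 10.41 in Mock and 10.34, 9.99, 10.24, 10.27 and 10.21 in BLT2, with the BLT2 2 h array lowest. These 3 calls were lost without any 1 array, with limma adjusted p up to 0.16, 0.127 and 0.182. The 3 complex II genes differed by -0.16 ± 0.07 (SDHA), -0.10 ± 0.07 (SDHB) and -0.11 ± 0.06 (SDHC), and were not called (limma adjusted p = 0.13, 0.308 and 0.25).

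Whether the line difference itself shifted on calcium return was tested from the 5 differences between the lines, with the 2 return steps against the 3 earlier ones. Only COX7A1 was called, 1 of 53 (1.89%), against 11.3% of all genes (8.50% higher and 2.84% lower), and 13 of 53 subunits had an unadjusted limma p below 0.05, against 3318 of 10498 genes. The shift was below 0 for 40 of 53 subunits, with a median of -0.09, against 0.03 over all genes. Quantile normalization moved these medians to -0.16 and -0.02 and gave 0 subunits higher and 6 lower, with 824 of 10450 genes higher and 575 lower, against 892 and 298 of 10498 before it. The COX7A1 log2 signal on the Mock arrays was 7.68 at 0 h, 7.54 at 2 h, 8.11 at 18 h, 8.67 on return and 8.63 on return with 12-HHT. On the BLT2 arrays it was 7.72, 7.94, 8.14, 7.95 and 8.09 in the same order. The Mock return arrays were the highest of the 10, and the BLT2 arrays stayed within a narrower band. The line difference shifted by -0.79 ± 0.15 (limma adjusted p = 0.0212). Leaving out an array of either line removed the difference of that step. The COX7A1 call was lost without the 0 h step (shift -0.85, limma adjusted p = 0.0679). It was also lost without the return or the return with 12-HHT step, where 1 return step remained and the shift was -0.70 and -0.88. Its partner isoform COX7A2 was not analysed here. The related COX7A2L and COX6A2, a muscle isoform of another complex IV subunit, were not called, with shifts of 0.19 ± 0.12 and -0.37 ± 0.19 (limma adjusted p = 0.283 and 0.217).

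Other genes of the pathway came from lists by function. Of subunits outside the symbol rule, 5 were tested (CYC1, CYCS, NDUFAB1, DMAC2L and COX1, the last encoded in mitochondrial DNA). None was called by limma at 18 h against 0 h, against 27.2% of all genes. An unadjusted limma p below 0.05 was found for 2 of the 5, against 4214 of 10498 genes. CYCS, cytochrome c, which carries electrons from complex III to IV, was lower in BLT2, with a difference of -0.77 ± 0.13 (limma adjusted p = 0.0111). Its call held in 10 of 10 fits without 1 array, in effect 5 fits without 1 step. Its line difference also shifted on return, by -0.60 ± 0.14 (adjusted p = 0.0411), a call that held in 2 of 10 such fits, those without a 2 h array, with adjusted p up to 0.269. Of 36 assembly factors, 3 rose and 7 fell at 18 h (27.8%), a share close to the 27.2% of all genes. The largest were NDUFAF2 (-0.74 ± 0.18, adjusted p = 0.0235), COA7 (-0.73 ± 0.17, adjusted p = 0.0182), COA1 (0.68 ± 0.15, adjusted p = 0.0156) and NDUFAF7 (-0.64 ± 0.11, adjusted p = 0.00671), by limma, of which NDUFAF2 and NDUFAF7 serve complex I and COA1 and COA7 complex IV. NDUFAF2, COA7 and COA1 lost the call without either 0 h or either 18 h array, with adjusted p up to 0.143, 0.112 and 0.133, and the NDUFAF7 call held in 8 of 10 such fits and was lost without the BLT2 0 h or BLT2 18 h array, with adjusted p up to 0.0735. In BLT2 against Mock, 1 of the 36 was called (2.78%, against 15.9% of all genes), UQCC1, an assembly factor of complex III, at 0.52 ± 0.09 (limma adjusted p = 0.0136). The UQCC1 call held in 10 of 10 fits without 1 array, again in effect 5 fits without 1 step.

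Of 10 tested regulators of mitochondrial genes, 1 rose and 2 fell at 18 h by limma, against 15.0% and 12.2% of all genes: GABPB1, a partner of the ETS factor GABPA, at 0.59 ± 0.14, TFB1M, a methyltransferase of mitochondrial ribosomal RNA, at -0.63 ± 0.13, and the coactivator PPARGC1B at -0.39 ± 0.12 (adjusted p = 0.0199, 0.0135 and 0.0467). Without 1 array these calls held in 7 of 10, 7 of 10 and 2 of 10 fits, with adjusted p up to 0.164, 0.0976 and 0.232, and the losses included the BLT2 18 h array for each. In BLT2 against Mock 2 of the 10 were lower, against 8.13% of all genes, TFAM, which packages and transcribes mitochondrial DNA, at -0.72 ± 0.10, and GABPA at -0.29 ± 0.07 (limma adjusted p = 0.00701 and 0.0354). The TFAM call held in 10 of 10 fits without 1 array, in effect 5 fits without 1 step. The GABPA call held in 2 of 10, those without an 18 h array, with adjusted p up to 0.12.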

How the data were processed

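Transcript signals were measured on 10 arrays, 1 per line and step, so samples were grouped by the labelled line and step and n is 1 array per combination. Per the submitters' processing notes, the deposited log2 signals came from Affymetrix Expression Console with GCRMA. This method models probe background from sequence and then equalises signal distributions, so shifts common to all genes of an array cannot be seen. The sources used here give neither versions nor a genome build. Values ran from 1.55 to 14.10. The number of arrays limits the precision.

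Of 32391 probe sets, 16545 had 1 symbol in the platform annotation, 370 had several and 15476 none. They named 15947 genes, 516 with several probe sets, for which the highest mean was kept. All 57 subunit genes had 1 probe set and the same symbol in the RefSeq gene table. The filter kept 10498 genes whose signal exceeded 7.21, the overall median, on 2 or more arrays. Steps and lines were fitted in limma 3.58.1 under R 4.3.3 with line + step and eBayes (4 residual degrees of freedom, prior 3.46), and the shift of the line difference on 5 differences (3 residual, prior 4.11). P-values were adjusted by Benjamini-Hochberg over all 10498 genes within each of 9 comparisons. Since preparations were mixed before hybridisation, p-values measure only what this model leaves. Changes within 1 line have no test and are given by size (1.5-fold, log2 0.585).

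The subunits and the lists (other subunits, assembly factors, mitochondrial ribosome, TCA cycle, regulators, exchange, cell type markers) were chosen with earlier results of these data known. Named are called subunits, up to 8 each way per comparison, the highest-signal member and the extremes at 18 h of each complex, complex II, isoform sets, and up to 4 called genes of a list. Alternatives were other filters, quantile normalization, averaged probe sets per gene, an intensity trend, fewer arrays and leaving out each array. On simulated data, fits for 18 h against 0 h recovered 79% of genes changed by 1 and 98% of those changed by 2 on the log2 scale, with 5 of 10298 unchanged genes called. For the shift of the line difference these were 53%, 90% and 10 of 10298. The simulated noise was normal and independent between arrays, and the unchanged genes had no step or line effect, unlike the real data. Changes below 1 were not simulated, and the called subunit changes at 18 h against 0 h were all below 1 in size except that of ATP5F1D.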

Additional observations from a re-analysis of the deposited data

Results flagged for a closer look

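The line difference of COX7A1, the heart and muscle isoform of a complex IV subunit, differed between the steps after calcium return and those before it, by -0.79 ± 0.15 on the log2 scale (limma adjusted p = 0.0212 for the test of that difference). Its BLT2 minus Mock difference was positive at all 3 earlier steps and negative at both return steps, and the signals of each array are given in the report.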

How the results depend on the processing

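Counts are of subunits called higher and lower. At 18 h against 0 h (6 and 5), no signal filter gave 2 and 3, the 4 arrays of the comparison alone 12 and 9, and leaving out both 12-HHT arrays 3 lower. At 18 h against 2 h (6 and 3), no filter gave 2 and 1, quantile normalization 3 and 6, and 1 lower was left both without the 12-HHT arrays and with the 4 arrays alone. For return against 0 h (3 and 3), the intensity trend gave 6 higher, and the 4 arrays alone 0 and 1. For BLT2 against Mock (1 and 6), no filter gave 0 and 2, and leaving out the 12-HHT arrays 0 and 1. For the shift of the line difference (0 and 1), the stricter filter gave 2 lower, quantile normalization 6 lower and the intensity trend 1 and 5. The cause of these moves was not tested, beyond the fewer or more genes and arrays that each setting tests. With 1 array left out, counts ran from 0 to 6 and 1 to 4 at 18 h against 0 h, 0 to 4 and 0 to 2 against 2 h, 0 to 3 and 0 to 3 for return against 0 h, 0 to 1 and 1 to 3 between the lines, and 0 to 1 and 0 to 4 for the shift, and stayed at 0 to 0 in the other 4 comparisons. In such fits the step left with 1 array is assumed to vary like the others. Between the lines and for the shift, dropping the Mock or the BLT2 array of a step gives the same result. For these the 10 fits amount to leaving out each of the 5 steps. Of 34 calls of single subunits, 2 held in all 10 fits without 1 array, ATP5F1D at 18 h against 0 h and NDUFB3 between the lines. The NDUFB3 signals on the BLT2 0 h and 2 h arrays lay below the level of the signal filter, which limits that call.

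No paired analysis was possible because the labels carry no replicate numbers to pair arrays by. The fits match arrays by line and step alone. Signal over background limits the 4 subunits below the filter, and with 4 residual degrees of freedom the 95% interval of a step change had a median half-width of 0.24.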

Other observations

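Genes that supply or use the respiratory chain were described in the same fits. Of 72 mitochondrial ribosomal protein genes, which serve translation of the subunits encoded in mitochondrial DNA, 6 rose and 11 fell at 18 h against 0 h (23.6%, against 27.2% of all genes), with a median change of -0.08. MRPS18B at 1.13 ± 0.16 and MRPL48 at 1.05 ± 0.14 rose most (limma adjusted p = 0.00388 and 0.00317), and both calls held in each of the 10 fits without 1 array. MRPL15 at -0.69 ± 0.17 and MRPL55 at -0.68 ± 0.14 fell most (limma adjusted p = 0.0239 and 0.0119). Both of these calls were lost without either 0 h or either 18 h array, with adjusted p up to 0.135 and 0.0827. In BLT2 against Mock, 5 of the 72 were lower and 0 higher (6.94%, against 8.13% of all genes lower and 7.82% higher), with a median of -0.13, and the largest was MRPS35 at -0.46 ± 0.12 (limma adjusted p = 0.0375), a call that held in 2 of 10 fits without 1 array.

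Of 17 genes of the TCA cycle and pyruvate dehydrogenase, 0 rose and 3 fell at 18 h, against 12.2% of all genes that fell. DLAT, the acetyltransferase of pyruvate dehydrogenase, changed by -0.75 ± 0.11, IDH2, mitochondrial isocitrate dehydrogenase, by -0.41 ± 0.11, and SUCLA2, a subunit of succinyl-CoA synthetase, by -0.37 ± 0.09 (limma adjusted p = 0.00426, 0.031 and 0.0261). Without 1 array, these calls held in 10 of 10, 6 of 10 and 6 of 10 fits, and adjusted p reached 0.0447, 0.236 and 0.185. IDH2 and SUCLA2 were lost without either 0 h or either 18 h array. In BLT2 against Mock, 1 of the 17 was lower (5.88%, against 8.13% of all genes), DLD, which the pyruvate and oxoglutarate dehydrogenases share, at -0.31 ± 0.08 (limma adjusted p = 0.0409), and its call was lost without any 1 array, with adjusted p up to 0.141. Of 8 genes of ATP and ion exchange, 1 was called at 18 h (12.5%, against 27.2% of all genes). SLC25A5, an ADP/ATP carrier, fell at 18 h by 0.45 (limma adjusted p = 0.0294), and the call held in 6 of 10 fits without 1 array, with adjusted p up to 0.191. In BLT2 against Mock, 2 of the 8 were called, against 15.9% of all genes. SLC25A6 was higher at 0.24 ± 0.06 and UCP2 lower at -0.39 ± 0.09 (limma adjusted p = 0.0339 and 0.0333), in 0 of 10 and 2 of 10 such fits.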
